A study of Homo sapiens with 9 samples.

Results

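Transcripts of 10 BCL2 family genes were followed through 9 RNA samples of SKNO-1 cells. The genes were picked by symbol, which gave 10 of the 25680 symbols in the deposited counts: the pro-survival genes BCL2, BCL2L1 and MCL1, the effectors BAX and BAK1, and the BH3-only genes BCL2L11, BID, BBC3, PMAIP1 and BAD. Each was represented by its RefSeq transcript with the highest total count, and all 10 passed the filter on low counts that left 14199 genes for testing. SKNO-1 is an established human line of acute myeloid leukaemia with the t(8;21) fusion RUNX1-RUNX1T1, also known as AML1-ETO, and the study grew it in medium with the cytokine GM-CSF. The 3 groups held 3 samples each. EV was the control, an abbreviation the labels leave unexplained where the study describes a control shRNA, and SH2 and SH3 carried shRNA 2 or shRNA 3 against ASXL2, a chromatin regulator related to the Polycomb and Trithorax proteins. The samples of every group were numbered 1, 13 and 25, and the meaning of these numbers was not given. No drug treatment was labelled in any group. The study calls its samples biological replicates, while the labels do not say whether cultures or infections were separate, so p values measure the spread between these samples only.

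The BCL2 family decides whether the outer membrane of the mitochondrion stays intact. Pro-survival proteins hold the effectors BAX and BAK in check, BH3-only proteins bind the pro-survival proteins or activate the effectors, and activated effectors open pores that release cytochrome c and start the caspases. In acute myeloid leukaemia the family is known as the target of BH3-mimetic drugs such as venetoclax, which binds BCL2, and cytokines such as GM-CSF are known to act on the levels of several members.

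Total counts with 1 transcript per gene were 27714431 to 35406063 per sample, and 3 counts, the limit below which a gene could not be told from 0, were worth 0.0847 to 0.108 CPM, the count scaled to the TMM-adjusted library total. That limit covers counting error only. ASXL2 itself was at 67.9, 67.9 and 74.7 CPM in the EV samples, at 30.4, 36.2 and 36.2 CPM in SH2 and at 26.9, 29.1 and 41.1 CPM in SH3. No knockdown sample reached the lowest control. In edgeR's quasi-likelihood test with Benjamini-Hochberg adjustment, the log2 fold change was -1.03 (SE 0.16, adjusted p 0.808) in SH2 and -1.12 (SE 0.16, adjusted p 0.612) in SH3. Blocking on the replicate number gave edgeR values of -1.04 (SE 0.10, adjusted p 0.00469) and -1.13 (SE 0.10, adjusted p 0.00407). The samples numbered 1 stood apart from the rest: the first principal component of log2 CPM, with 52.9% of the variance, placed them at -24.9 (EV), -21.2 (SH2) and -58.6 (SH3) and the other 6 between 4.84 and 25.0. Of 8 markers of t(8;21) myeloid cells 7 were tested, with a summed level of 7320 to 11355 CPM per sample, while CD34 did not exceed 10 counts. MPO made up most of this sum, at 6368 to 10243 CPM, and POU4F1 was the lowest of the 7, at 3.30 to 4.25 CPM. The 5 erythroid and the 5 epithelial and stromal markers all failed the filter, and of the 5 T cell markers CD8A alone passed. Of the 4 B cell markers used CD79A, CD79B and PAX5 passed, with MS4A1 at 0, and their summed level was 62.3 to 67.6 CPM in EV, 60.6 to 70.6 CPM in SH2 and 51.7 to 60.2 CPM in SH3. CD79B made up most of that sum, and PAX5 was the 1 marker called between groups, lower in the blocked edgeR fit in SH3 (-1.11, adjusted p 0.0308) and for both shRNAs averaged (-0.79, adjusted p 0.0412). In the samples numbered 1, KIT (0.36, edgeR adjusted p 0.00660) and CD79A (0.43, edgeR adjusted p 0.0423) were higher and PAX5 (-0.50, edgeR adjusted p 0.0205) lower. Their part in the results on the BCL2 family was not tested.

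To compare genes with each other, CPM was divided by the length of the gene's canonical GENCODE transcript in kilobases. On this scale of CPM per kilobase BAX was highest, at 73.8 ± 9.97 (SD, n = 9), and BBC3 lowest, at 2.85 ± 0.808. BCL2L1 at 54.7 ± 2.76, MCL1 at 53.0 ± 2.47 and BID at 50.7 ± 3.86 came next and overlapped in range. BAD at 24.3 ± 1.46 stood alone between BID above it and BAK1 below it, with no overlap to either. BAK1 at 14.9 ± 1.90, BCL2L11 at 11.8 ± 1.93, BCL2 at 10.9 ± 1.64 and PMAIP1 at 9.63 ± 1.49 each overlapped the next, and PMAIP1 was above BBC3 in all 9 samples without overlap. BAX exceeded BCL2L1 in 9 of 9 samples, although their ranges over samples met. The rank of BAX rests on a short reference transcript of 795 bases, against 6881 bases for BCL2, so the order of levels depends on the transcript taken for the length. Among the 14199 tested genes, the mean CPM of the members ran from percentile 25.9 (BBC3) to percentile 93.3 (MCL1).

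**Figure D1:**
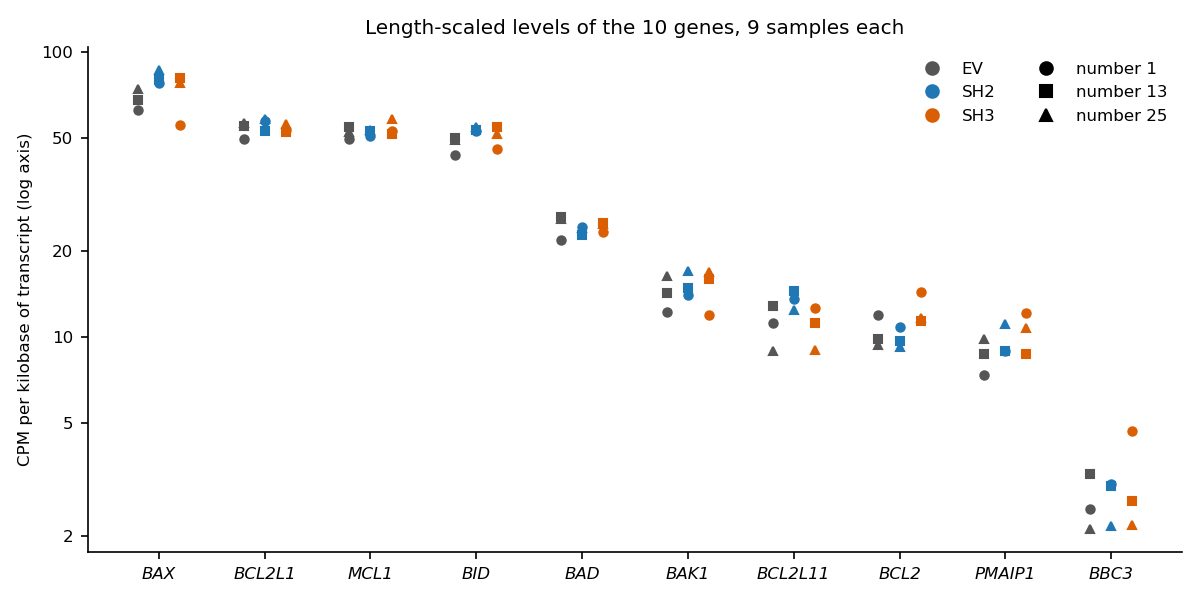
Levels of the 10 genes as CPM per kilobase of transcript on a log axis, 1 point per sample, with groups side by side and the label numbers as symbols. BAX is at the top with 55.4 to 86.7 and BBC3 at the bottom with 2.11 to 4.68, and the sample SH3 number 1 is the lowest for BAX and the highest for BBC3.

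Of the 3 pro-survival genes, BCL2 had the widest range over the 9 samples, 0.63 on the log2 scale. BCL2, the founding member and the protein that venetoclax binds, is encoded on the minus strand of chromosome 18, between positions 60790579 and 60987361 of GRCh37 (transcript NM_000633). It was at 82.1, 68.0 and 64.4 CPM in the EV samples numbered 1, 13 and 25, at 74.4, 66.5 and 63.7 CPM in SH2, and at 98.8, 78.2 and 80.6 CPM in SH3. The sample numbered 1 was the highest in every group, and the 3 SH3 samples lay above the 3 SH2 samples without overlap, while EV overlapped both. At each number SH2 was below EV and SH3 above it, with log2 differences from EV of -0.14, -0.03 and -0.01 for SH2 and 0.27, 0.20 and 0.33 for SH3.

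BCL2L1, the gene of the survival protein BCL-XL, is encoded on the minus strand of chromosome 20, between 30252255 and 30311792 (NM_138578). Its level was 128, 142 and 145 CPM in EV, 148, 136 and 151 CPM in SH2, and 137, 136 and 144 CPM in SH3. The groups overlapped, and the sample numbered 25 was the highest in each of them by a small margin. MCL1, a short-lived survival protein on which many myeloid cells depend, is encoded on the minus strand of chromosome 1, between 150533371 and 150552214 (NM_021960), and was the most abundant member in reads. It was at 196, 216 and 208 CPM in EV, at 201, 209 and 210.1 CPM in SH2, and at 209.7, 203 and 230.2 CPM in SH3. These values overlapped between groups and between numbers. From lowest to highest sample BCL2L1 covered 0.23 and MCL1 0.23 on the log2 scale, the narrowest ranges of the 10 members.

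**Figure D2:**
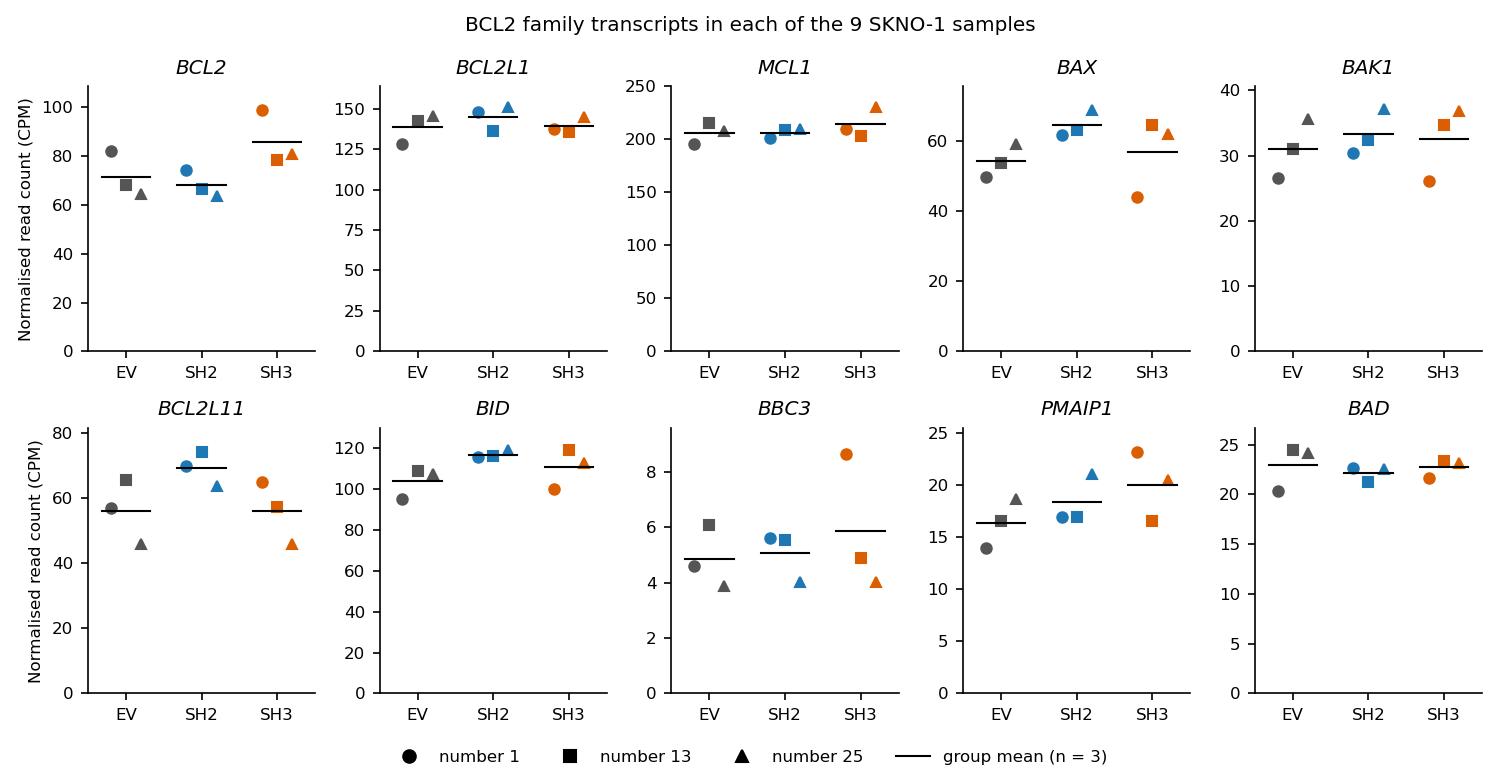
Normalised read counts (CPM) of the 10 genes in each sample, with 1 panel per gene, the groups on the horizontal axis, the label numbers as symbols and a line at each group mean (n = 3). BCL2 is highest in the sample numbered 1 of every group, at 74.4 to 98.8 CPM, where BAK1 is lowest, at 26.0 to 30.4 CPM.

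The effectors BAX and BAK1 encode the proteins that form the pore. BAX is encoded on the plus strand of chromosome 19, between 49458072 and 49465055 (NM_001291428), and BAK1 on the minus strand of chromosome 6, between 33540324 and 33548070 (NM_001188). Because both differed in the same direction between the numbers, the bases before their first exons are shown from the RefSeq promoter table, placed by an exact match to GRCh37 and stopped at the first annotated exon. The BAX run is chr19:49457882-49458071 on the plus strand and the BAK1 run is chr6:33548071-33548303 on the minus strand, both written 5′ to 3′. Capitals mark ACGTG, the core of the hypoxia response element, with the C that completes CACGTG where present, and the GC box GGGCGG, each searched on both strands.
BAX: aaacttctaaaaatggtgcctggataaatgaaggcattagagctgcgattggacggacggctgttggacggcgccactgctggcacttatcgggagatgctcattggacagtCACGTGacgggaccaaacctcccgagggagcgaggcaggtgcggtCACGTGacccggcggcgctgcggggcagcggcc
BAK1: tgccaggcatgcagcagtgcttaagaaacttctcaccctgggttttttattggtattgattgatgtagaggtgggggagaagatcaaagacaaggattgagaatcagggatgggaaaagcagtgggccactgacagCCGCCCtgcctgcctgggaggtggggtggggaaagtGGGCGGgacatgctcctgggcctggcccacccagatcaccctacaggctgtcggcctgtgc
The BAX run held 4 matches to ACGTG, from CACGTG sites that match on both strands, and no GC box, while the BAK1 run held 2 GC boxes and no ACGTG. In the full windows of 250 bases of the RefSeq table, which reach into annotated exons, BAX had 9 matches to ACGTG and 1 GC box and BAK1 had 0 and 2. Over 35116 promoters such windows held ACGTG in 18.5% and GGGCGG in 42.6%. Neither run held the RUNX motif TGTGGT, present in 11% of promoters, or the FOXO motif TGTTTAC, present in 2.98%. These are matches of letters only.

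BAX was at 49.7, 53.9 and 59.2 CPM in EV, at 61.9, 63.3 and 68.9 CPM in SH2, and at 44.1, 64.7 and 62.1 CPM in SH3. The 3 SH2 samples lay above the 3 EV samples without overlap, and SH3 number 1 was the lowest of all 9. BAK1 was at 26.6, 31.0 and 35.5 CPM in EV, at 30.4, 32.3 and 37.1 CPM in SH2, and at 26.0, 34.7 and 36.8 CPM in SH3. The groups overlapped, but the sample numbered 1 was the lowest in each of them, and all 3 samples numbered 1 lay below the other 6.

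Of the BH3-only genes, BCL2L11 encodes BIM, which binds all the main pro-survival proteins and is known to be restrained by cytokine signalling. It is encoded on the plus strand of chromosome 2, between 111876955 and 111926021 (NM_138622). Its promoter is shown because it was the member called between numbers 25 and 13, close to the threshold, and FOXO factors are known to act on it. Unlike the runs of BAX and BAK1, the RefSeq run lies inside the gene bounds given above and not before them. It is chr2:111878241-111878490 on the plus strand, in GRCh37, with a FOXO motif (TGTTTAC, here on the other strand) and GC boxes in capitals.
BCL2L11: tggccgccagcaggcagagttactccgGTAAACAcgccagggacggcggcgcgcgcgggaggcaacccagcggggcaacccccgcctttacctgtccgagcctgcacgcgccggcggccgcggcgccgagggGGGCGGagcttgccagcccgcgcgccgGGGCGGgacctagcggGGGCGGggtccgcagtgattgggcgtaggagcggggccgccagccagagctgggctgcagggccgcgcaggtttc
The run held 1 FOXO motif, 3 GC boxes and no match to ACGTG or TGTGGT. BCL2L11 was at 57.0, 65.4 and 45.7 CPM in EV, at 69.6, 74.0 and 63.6 CPM in SH2, and at 64.8, 57.2 and 45.9 CPM in SH3. The sample numbered 25 was the lowest in every group, and SH2 was above EV at each number by 0.29, 0.18 and 0.47 on the log2 scale. The groups overlapped.

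BID, which links death receptors to the mitochondrion once caspase-8 cuts it, is encoded on the minus strand of chromosome 22, between 18216904 and 18257536 (NM_197966). It was at 95.2, 109 and 108 CPM in EV, at 116, 116 and 119 CPM in SH2, and at 99.9, 119 and 113 CPM in SH3. SH2 lay above EV without overlap, which held for 7.15% of genes, and every knockdown sample was above the EV sample of its number (6 of 6). These 6 comparisons share the 3 EV samples, and the share of all genes with 6 of 6 was not counted.

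BBC3 and PMAIP1 encode PUMA and NOXA, both known as transcriptional targets of p53; PUMA binds all the main pro-survival proteins, whereas NOXA binds mainly MCL1. BBC3 is encoded on the minus strand of chromosome 19, between 47724079 and 47736023 (NM_014417), and was the scarcest member, at 4.62, 6.09 and 3.90 CPM in EV, 5.63, 5.55 and 4.02 CPM in SH2, and 8.65, 4.91 and 4.04 CPM in SH3. These values rested on 111 to 254 reads per sample, and BBC3 had the widest intervals of the members. PMAIP1 is encoded on the plus strand of chromosome 18, between 57567228 and 57571537 (NM_021127), and was at 14.0, 16.6 and 18.7 CPM in EV, 17.0, 17.0 and 21.1 CPM in SH2, and 23.2, 16.6 and 20.5 CPM in SH3. Both genes were highest in the sample SH3 number 1. PMAIP1 was above the EV sample of the same number in 6 of 6 comparisons, but SH3 number 13 exceeded its control by only 0.00135 on the log2 scale. As for BID, these comparisons share the EV samples, and the share of all genes with 6 of 6 was not counted. BAD, which is controlled by phosphorylation downstream of growth factors, is encoded on the minus strand of chromosome 11, between 64037302 and 64052176 (NM_004322). It was at 20.3, 24.5 and 24.1 CPM in EV, at 22.7, 21.2 and 22.5 CPM in SH2, and at 21.7, 23.3 and 23.1 CPM in SH3, with no order among groups or numbers.

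The first question was whether ASXL2 knockdown changed the family. No member passed the threshold of 0.05 in edgeR with all 9 samples, for either shRNA, for both shRNAs averaged, or between the shRNAs, whereas DESeq2 with the replicate block called BCL2 in SH3 against EV (4.04% of genes called) and in SH3 against SH2 (1.29%). In edgeR without the block, 0 of 10 members were called in each of these 4 comparisons, where 0% of all genes were called, and at an unadjusted p under 0.05 the members numbered 0, 0, 0 and 1 against 5.37%, 5.09%, 6.63% and 2.06% of all genes. When the fit was blocked on the replicate number, edgeR also called 0 of 10, against 0.282%, 0.416%, 1.1% and 0.106% of all genes. At an unadjusted p under 0.05 the blocked fit gave 3, 2, 1 and 2 members against 18.7%, 18.7%, 20.4% and 11.9% of genes. DESeq2 without the block called 0 members in all 4 comparisons, against 0.168%, 0.207%, 0.457% and 0.0775% of the genes it tested. Across 13719 genes the blocked log2 fold changes had a Spearman correlation with transcript length of -0.345 in SH2 and -0.287 in SH3, where genes are not independent replicates. With a correction for length, the blocked edgeR fit called 0 members in all 4 comparisons, against 0.051%, 0.146%, 0.117% and 0.131% of genes.

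The median log2 fold change over the 10 members was 0.08 in SH2 and 0.07 in SH3, with 0.01 for all tested genes in both. The median size of the change without its sign was 0.08 in SH2 and 0.07 in SH3, against 0.13 for all genes in each. In both shRNAs 8 of 10 members had a value above 0, against 51.4% of all genes in SH2 and 53.1% in SH3. The comparisons with EV share the 3 control samples, so these counts are not independent of each other. In SH2, BAX and BID were the 2 members above EV without overlap, which held for 7.15% of genes, and in SH3 no member was apart from EV, against 10.1% of genes in either direction.

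Among pro-survival genes, the blocked edgeR fit gave BCL2 a log2 fold change of 0.26 in SH3 (SE 0.06, 95% interval 0.12 to 0.41, adjusted p 0.0946) and -0.06 in SH2 (SE 0.06, interval -0.21 to 0.08, adjusted p 0.626). Without the block the SH3 value was 0.26 (SE 0.13, edgeR adjusted p 0.971). Of the fits of all 9 samples that were run, DESeq2 with the block alone called BCL2 in SH3, at 0.26 and an adjusted p of 0.0454. BCL2L1 was bounded within -0.09 to 0.22 in SH2 and -0.14 to 0.16 in SH3 by the 95% intervals of the blocked fit, and MCL1 within -0.15 to 0.15 and -0.10 to 0.21. A change in either gene as large as the ASXL2 change lay outside these intervals.

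Among effectors and BH3-only genes, the largest value in SH2 was that of BCL2L11, at 0.31 in the blocked edgeR fit (SE 0.09, interval 0.12 to 0.50, adjusted p 0.120). BAX followed at 0.26 (SE 0.09, edgeR adjusted p 0.188) and BID at 0.17 (SE 0.07, edgeR adjusted p 0.215). In SH3 the same 3 genes had edgeR values of -0.00, 0.06 and 0.09 with adjusted p values of 0.995, 0.766 and 0.493. PMAIP1 had the largest SH3 value, 0.29 (SE 0.13, edgeR adjusted p 0.251), against 0.16 in SH2 (SE 0.13, edgeR adjusted p 0.519). BBC3 was the least certain, with intervals of -0.39 to 0.50 in SH2 and -0.21 to 0.69 in SH3. Without the sample SH3 number 1, the blocked edgeR fit called BCL2L11 (0.31, adjusted p 0.0141) and BAX (0.25, adjusted p 0.0210) in SH2, where it then called 11.2% of all genes.

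**Figure D3:**
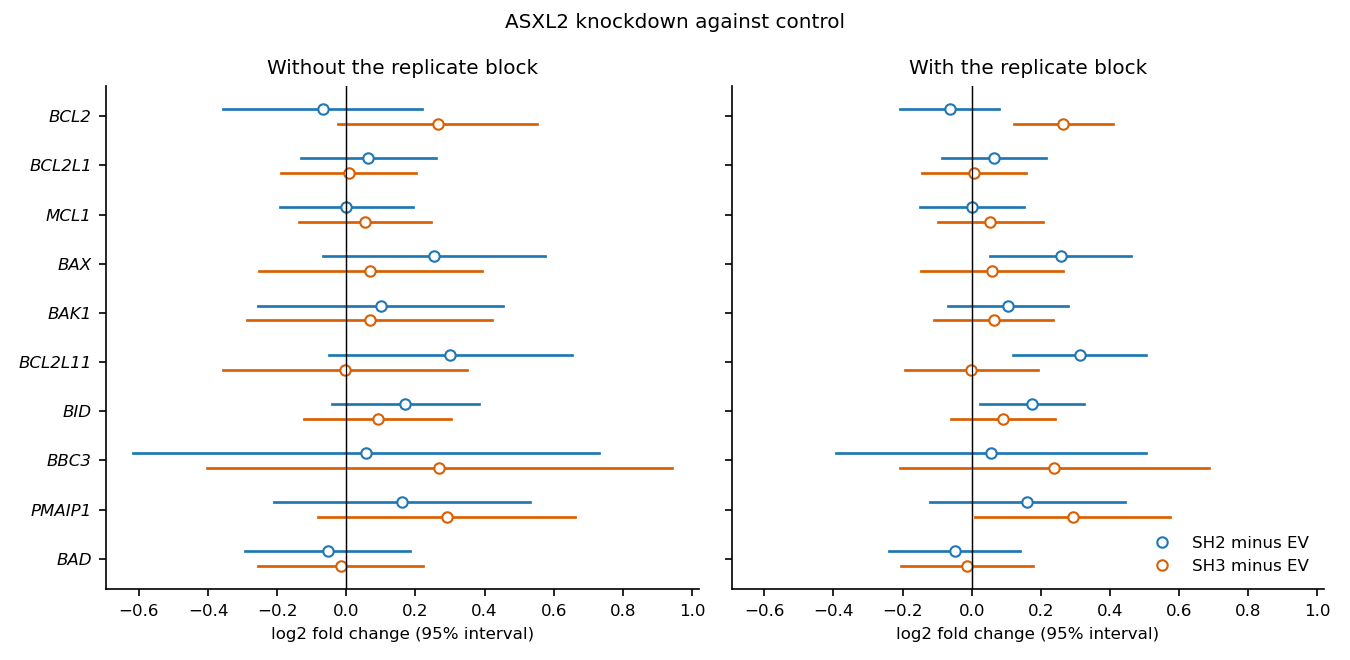
Log2 fold changes of the 10 genes for SH2 and SH3 against EV from edgeR with 95% intervals, without the replicate block on the left and with it on the right. Open circles mark an adjusted p of 0.05 or more, which holds for every point, and the blocked intervals above 0 are those of BCL2 (0.12 to 0.41) and PMAIP1 (0.01 to 0.57) in SH3 and of BCL2L11 (0.12 to 0.50), BAX (0.05 to 0.46) and BID (0.02 to 0.32) in SH2.

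The shRNAs were then compared with each other. BCL2 was the member with the largest difference, SH3 exceeding SH2 by 0.33 on the log2 scale (SE 0.13, interval 0.04 to 0.62, edgeR adjusted p 0.998). It was the 1 member whose groups did not overlap, which held for 4.66% of genes. The blocked edgeR fit gave 0.33 (SE 0.06, interval 0.18 to 0.47, adjusted p 0.104), and DESeq2 with the block called it at an adjusted p of 0.0149. BCL2L11 differed in the other direction, at -0.31 in the blocked edgeR fit (SE 0.09, interval -0.51 to -0.12, adjusted p 0.214), and was lower in SH3 than in SH2 at each number. Without the 3 samples numbered 1 the blocked edgeR fit called BCL2L11, at -0.43 with an adjusted p of 0.0232, and 0.916% of genes. ASXL2 differed between the shRNAs by -0.10 in the blocked fit (SE 0.10, edgeR adjusted p 0.706).

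The samples were then compared by their label numbers. In an edgeR fit of group and number, 46.3% of all genes were called between the samples numbered 1 and the mean of numbers 13 and 25. Of the 10 members 3 were called, BCL2 higher and BAX and BAK1 lower in the samples numbered 1, which was no larger a share than among all genes. BCL2 was higher by 0.27 on the log2 scale (SE 0.06, interval 0.15 to 0.40, edgeR adjusted p 0.00325). BAK1 was lower, at -0.32 (SE 0.07, interval -0.47 to -0.17, edgeR adjusted p 0.00429), and was the 1 member without overlap, which held for 12.1% of genes in that direction. BAX was lower, at -0.26 (SE 0.08, interval -0.44 to -0.08, edgeR adjusted p 0.0226). Without the group term edgeR called BAK1 alone, among 36.6% of genes, and the calls of BCL2 (0.28, adjusted p 0.0599) and BAX (-0.26, adjusted p 0.0807) were lost at nearly the same values.

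Within EV, SH2 and SH3 in turn, the difference of number 1 from the mean of numbers 13 and 25 was 0.31, 0.19 and 0.32 for BCL2 on the log2 scale. For BAK1 it was -0.32, -0.19 and -0.46, and for BAX -0.18, -0.09 and -0.52. All 3 genes thus had 1 direction in all 3 groups, with the size for BAX resting on SH3. Without the sample SH3 number 1 the BAX value was -0.14 (edgeR adjusted p 0.107), while PMAIP1 passed at -0.24 (edgeR adjusted p 0.0350), in a fit that called 33.7% of genes. BID at -0.14 (edgeR adjusted p 0.0739) and BBC3 at 0.40 (SE 0.17, edgeR adjusted p 0.0801) did not pass. For BBC3 the value came from SH3, where number 1 exceeded the others by 0.96, against 0.25 in SH2 and -0.08 in EV. BCL2L1 at -0.05, MCL1 at -0.07 and BAD at -0.10 had intervals that included 0.

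**Figure D4:**
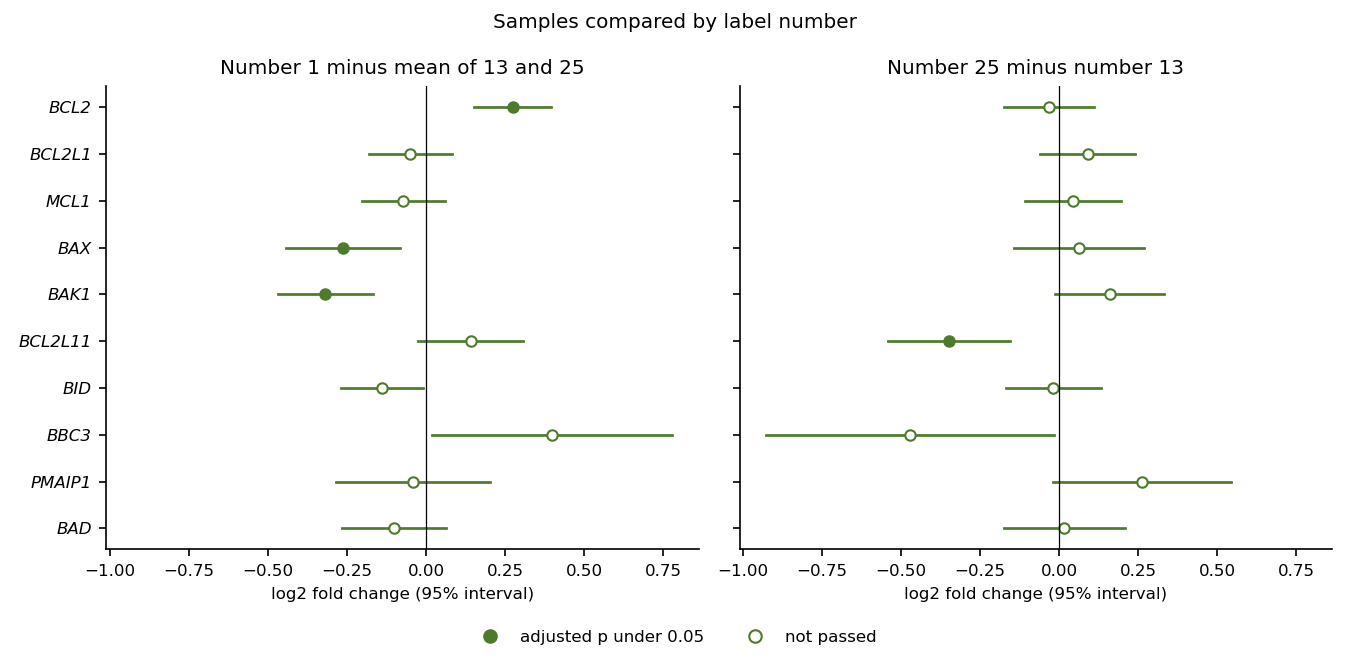
Log2 fold changes of the 10 genes between label numbers from the edgeR fit of group and number, with 95% intervals, number 1 against the mean of 13 and 25 on the left and number 25 against 13 on the right. Filled circles passed an adjusted p of 0.05, which were BCL2 (0.27), BAX (-0.26) and BAK1 (-0.32) on the left and BCL2L11 (-0.35) on the right.

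Between numbers 25 and 13, edgeR called 5.87% of genes and 1 of 10 members. Leaving out 1 sample moved that share of genes between 0.348% (without EV number 25) and 19.2% (without SH3 number 1). BCL2L11 was lower in number 25, at -0.35 (SE 0.09, interval -0.54 to -0.16, edgeR adjusted p 0.0438), with values of -0.52, -0.22 and -0.32 within EV, SH2 and SH3. This call was close to the threshold and was lost in 7 of the 9 fits that left out a sample, with edgeR adjusted p values of 0.0504 to 0.260. BBC3 was below number 13 in all 3 groups, by -0.64, -0.46 and -0.28, and the overall value of -0.47 did not pass (SE 0.21, edgeR adjusted p 0.192). Without the sample SH3 number 1, edgeR called BBC3 at -0.46 (adjusted p 0.0259) and PMAIP1 at 0.27 (adjusted p 0.0272). BCL2L1, BAK1 and PMAIP1 lay above and BBC3 below number 13 without overlap, 4 of 10 members where 31.6% of genes did so.

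Ratios between members were also taken sample by sample. On the scale of CPM per kilobase, the ratio of BCL2 to BAX was 0.191, 0.146 and 0.126 in the EV samples numbered 1, 13 and 25. It was 0.139, 0.121 and 0.107 in SH2 and 0.259, 0.140 and 0.150 in SH3. The ratio was highest at number 1 in each group. The ratio of MCL1 to BCL2 ran from 3.70 in SH3 number 1 to 5.75 in SH2 number 25 and was lowest at number 1 in each group. These ratios were not tested.

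Other isoforms of the members mostly could not be told apart, because reads shared by isoforms were counted in each transcript. The transcript for BCL-XS (NM_001191), a pro-apoptotic splice form of BCL2L1, held 97.6% to 98.4% of the count of the BCL-XL transcript, and NM_182763 of MCL1 held 95.1% to 96.5% of NM_021960. In counts, 3 transcripts stood well below the chosen one of their gene. NM_000657, the short 3′ form of BCL2, was at 15.5% to 24.6% of NM_000633, and NM_001204113 and NM_207002 of BCL2L11 were at 14.2% to 20.5% and 14.9% to 21.6% of NM_138622. With every transcript as its own feature, the edgeR value of NM_000657 at number 1 was 0.06 (adjusted p 0.624), against 0.26 (adjusted p 0.00395) for NM_000633, in a fit that called 48.4% of transcripts. Differences between transcripts were not tested. For BCL2L11 between numbers 25 and 13, NM_138622 was at -0.33 (edgeR adjusted p 0.0530) in this fit, which called 6.18% of transcripts, while NM_001204113 was at -0.20 (adjusted p 0.313) and NM_207002 at -0.20 (adjusted p 0.301). In the GENCODE annotation BCL2L11 lies inside MIR4435-2HG on the opposite strand, BAD overlaps GPR137 and BAK1 has processed copies elsewhere. If these libraries were unstranded, as the study describes without naming SKNO-1, reads from such overlaps cannot be told apart.

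The rest of the apoptosis pathway was described from 8 lists of 55 other genes, of which 52 were tested. BCL2L10, HRK and BCL2L14 were at most at 2, 0 and 4 counts in any sample. Without the block edgeR called none of the 52 in the 4 group comparisons. With the block it called TP73, a relative of p53, lower in SH3 (-0.79, edgeR adjusted p 0.0409) and for both shRNAs averaged (-0.73, edgeR adjusted p 0.0329). Of all genes, 0.416% and 1.1% were called in these comparisons. TP73 was at 13.4, 24.7 and 19.7 CPM in EV, 9.21, 13.4 and 13.3 CPM in SH2, and 10.5, 12.1 and 10.1 CPM in SH3. All SH3 samples were below all EV samples, which held for 5.28% of genes. All SH2 samples were too, which held for 7.8% of genes, but SH2 number 13 by a very small margin (13.4446 against 13.4488 CPM in EV number 1).

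At number 1, 12 of the 52 genes were higher and 11 lower, against 46.3% of all genes called. BNIP3, a mitochondrial BH3-like protein known for mitophagy and as a hypoxia target, had the smallest p. It was at 209.7, 36.1 and 32.9 CPM in EV, at 264, 31.9 and 35.0 CPM in SH2, and at 582, 32.2 and 110.3 CPM in SH3. The samples numbered 1 lay above all others, by 2.91 on the log2 scale (SE 0.23, edgeR adjusted p 7.02e-05). Its relative BNIP3L was higher by 1.54 (SE 0.17, edgeR adjusted p 0.000243), and APAF1, the scaffold of the apoptosome, by 0.74 (SE 0.08, edgeR adjusted p 0.000209). BIRC3, an inhibitor of apoptosis, was higher by 1.10 (SE 0.12, edgeR adjusted p 0.000262). CYCS, which encodes cytochrome c, was lower, at -0.53 (SE 0.08, edgeR adjusted p 0.000820). The BCL2, BAX and BAK1 differences were smaller in size than those of these 5 genes. These 5 were named for the smallest p among the 52, so their larger size was favoured by the choice.

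**Figure D5:**
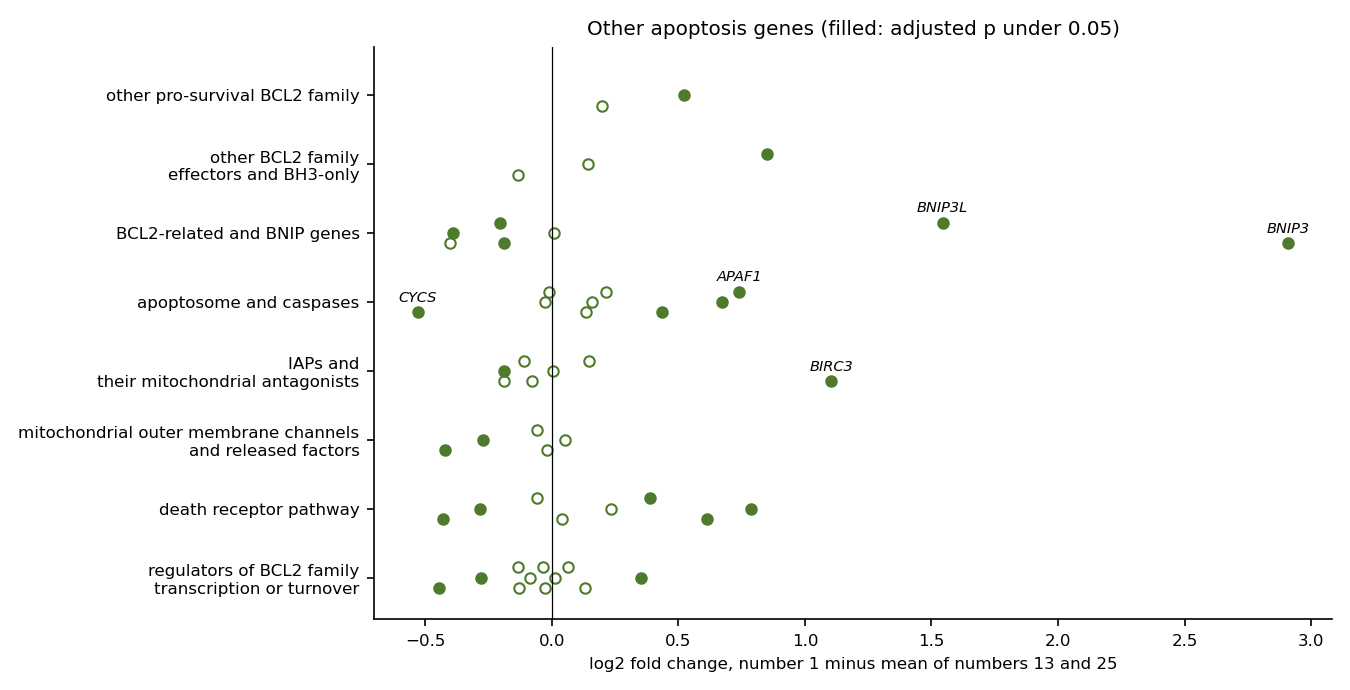
Log2 fold changes of 52 other apoptosis genes at number 1 against the mean of numbers 13 and 25 (edgeR), grouped by list, with filled circles for an adjusted p under 0.05 and names for the 5 genes with the smallest p. BNIP3 at 2.91 and BNIP3L at 1.54 lie farthest to the right and CYCS at -0.53 farthest to the left.

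Between numbers 25 and 13, 2 of the 52 genes were higher and 5 lower, against 5.87% of all genes. TNFRSF10A, a receptor for the death ligand TRAIL, was higher by 0.54 (SE 0.09, edgeR adjusted p 0.00844) and APAF1 by 0.40 (SE 0.09, edgeR adjusted p 0.0322). BMF, another BH3-only gene, was lower, at -1.21 (SE 0.23, edgeR adjusted p 0.0151), the same direction as BCL2L11. CFLAR, which encodes the caspase-8 inhibitor c-FLIP, was lower, at -0.49 (SE 0.10, edgeR adjusted p 0.0212), and so was BIRC3, at -0.70 (SE 0.15, edgeR adjusted p 0.0258). BMF was at 5.90 to 7.07 CPM in the samples numbered 25 and at 14.5 to 16.1 CPM in those numbered 13.

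The 3 members with the widest range over the 9 samples were BBC3 (1.14 on the log2 scale), PMAIP1 (0.72) and BCL2L11 (0.69). For each, the 3 tested genes with the closest pattern were found by the root mean square difference of centred log2 CPM over the 9 samples. They were FAM214B (0.113), UBALD2 (0.121) and FOXO6 (0.134) for BBC3. For PMAIP1 they were CLDND1 (0.0837), VSIG10L (0.0890) and SPRYD7 (0.0932), and for BCL2L11 DECR1 (0.0694), C21orf119 (0.0916) and SRD5A1 (0.106). Since all genes were measured in the same 9 samples, this is a description of likeness across these samples. In bulk RNA, fewer cells of a kind and less RNA per cell cannot be told apart for any of the members.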

How the data were processed

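RNA of SKNO-1 cells was sequenced by the authors. The study's methods describe unstranded libraries of poly(A) RNA, in a paragraph that names sorted mouse cells and does not name SKNO-1. The labels name the SKNO-1 line, although their extraction text speaks of bone marrow, and the line was taken as given. The deposited files held raw counts per RefSeq transcript on hg19, not normalized, in 48104 rows per sample. The submitters' processing notes name STAR, featureCounts and DESeq2 without versions or roles. Reads shared between isoforms entered the count of every isoform, so each of 25680 symbols (9509 with more than 1 row) kept its transcript with the highest total, and a shift between isoforms could move a value.

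Counts were tested in R 4.3.3 with edgeR 4.0.16 (quasi-likelihood F test, TMM, filterByExpr with a minimum count of 10 and a total of 15), with Benjamini-Hochberg adjustment over 14199 genes, with a threshold of 0.05. The group comparisons used 1 coefficient per group (6 residual degrees of freedom), and the number comparisons used group plus number (4). The SE of a log2 fold change is its size over the root of its F statistic. CPM used TMM-scaled totals, and gene places and lengths came from GENCODE on GRCh37. The numbers pair the samples: deviations from group means correlated between same-numbered samples of different groups at 0.598 on average and at least 0.398 over 9 pairs. The fit with the number as a block is therefore given beside each call. Within groups, chi-square per degree of freedom was 17.6 to 128, so no samples were merged. Alternatives were the block, DESeq2 1.42.0, other scalings, no filter, sums of rows, a length correction and leaving out samples. Blocked fits without single samples or without the samples numbered 1, and fits of every row, were chosen after seeing the data.

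The members, gene lists and comparisons were chosen with earlier results of these data known. Named were the 10 members and ASXL2, at most the 5 other apoptosis genes with the smallest p among those called per comparison and fit, and the 3 genes most like each of the 3 members with the widest range. Genes outside this rule, in the closing observations, were chosen after their values were seen, as were the marker genes named with a test. Promoter sequences came from the RefSeq table for GRCh37, each matched once to the genome. A marker gene of 1 list is not reported here.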

Additional observations from a re-analysis of the deposited data

Results flagged for a closer look

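BCL2 was below the EV sample of the same number in all 3 SH2 samples and above it in all 3 SH3 samples. The SH2 differences were -0.14, -0.03 and -0.01 on the log2 scale, and the blocked edgeR value of -0.06 (interval -0.21 to 0.08, adjusted p 0.626) did not pass; that of SH3, 0.26, did not pass either (adjusted p 0.0946). The difference of SH3 from SH2 was 0.33 on the log2 scale. The difference itself was tested and did not pass in edgeR, with an adjusted p of 0.998 without the replicate block and 0.104 with it. BCL2 is 1 of 10 members examined in this way, and the share of all genes with such a pattern was not counted. Over the alternatives run, its value ran from -0.14 to 0.04 in SH2 and from 0.15 to 0.38 in SH3. The direction in SH2 was therefore not kept in all of them.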

How the results depend on the processing

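Between label numbers, no called fold change of a member changed its sign under the alternatives run. In the group comparisons unblocked edgeR called 0 members, so the same check could not fail there. Sign changes of uncalled values were counted against all values of the members and ASXL2, called or not. The count was 30 of 341 in SH2 and 35 of 341 in SH3. For both shRNAs averaged it was 16 of 330, between the shRNAs 15 of 341, and in each number comparison 6 of 187. With the replicate block, edgeR called 0 members in each group comparison. DESeq2 with the replicate block called 1 member in SH3 against EV and 1 in SH3 against SH2, BCL2 in both. The blocked fit without the 3 samples numbered 1 called 1 in SH3 against SH2, BCL2L11. Leaving out each sample in turn gave 0 to 0 members without the block. With the block it gave 0 to 2 in SH2, 0 to 0 in SH3, 0 to 1 for both shRNAs and 0 to 1 between them; the exceptions were BCL2L11 and BAX in SH2, BAX for both (0.22, adjusted p 0.0268) and BCL2L11 in SH3 against SH2 (-0.42, adjusted p 0.0282), all without SH3 number 1, and BCL2 in SH3 against SH2 (0.37, adjusted p 0.0360) without SH3 number 13. Without SH3 number 1 these fits called 11.2%, 12.3% and 0.721% of genes in SH2, for both and between the shRNAs, and without SH3 number 13 1.79% between them. At number 1 the count was 3 to 4 on leaving out samples and 1, BAK1, with no group term (BCL2 0.28, adjusted p 0.0599; BAX -0.26, adjusted p 0.0807). BBC3 passed there without EV number 1 (adjusted p 0.0202) or EV number 13 (0.0368), and BID without SH2 number 1 (0.0324) or SH2 number 13 (0.0375), with the length correction (0.0242) and with every row as a feature (0.0413), in fits that called 39% to 49.2% of genes. Between numbers 25 and 13 the count was 0 to 3 on leaving out samples, and 0 with no group term, with summed rows and with every row as a feature. The causes were not tested. The number of genes that edgeR called with the block was 40, 59, 156 and 15 in the 4 group comparisons against 0 without it, 7, 20, 16 and 18 with the length correction, 22, 26, 56 and 11 with DESeq2, and 369, 474, 629 and 155 with DESeq2 and the block. Leaving out 1 sample moved the blocked edgeR counts over 0 to 1604, 1 to 368, 2 to 1755 and 0 to 257.

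The ASXL2 fold change did not pass in unblocked edgeR with RLE or upper quartile scaling, no filter, summed rows, only the 2 groups compared, every row, or without the samples numbered 1 (-1.13 to -0.98, adjusted p 0.0517 to 0.998). It passed under these alternatives, given for SH2, SH3 and both: block -1.04, -1.13 and -1.09, block with length correction -0.82, -0.95 and -0.88, DESeq2 -1.03, -1.12 and -1.07, DESeq2 with block -1.04, -1.14 and -1.09, block without the samples numbered 1 -0.97, -1.04 and -1.004, and block with every row -1.04, -1.13 and -1.09. Leaving out each sample gave -1.08 to -0.95 in SH2, -1.32 to -1.01 in SH3 and -1.18 to -1.02 for both without the block. With the block it gave -1.13 to -0.96, -1.27 to -1.05 and -1.16 to -1.005. These are sizes only, and the call was not kept in all of these fits. In SH2, 0 genes of any kind were called in the unblocked edgeR fits. The same held for the blocked SH2 fits without SH2 number 1 or without SH2 number 25.

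BBC3, with 111 to 254 reads per sample, had intervals too wide to show a change of the size seen in BCL2.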

Other observations

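Some further apoptosis genes, chosen after their values were seen, are given as values. FOXO3, a transcription factor known to act on BCL2L11, was higher in the samples numbered 1 by 0.35 (SE 0.07, edgeR adjusted p 0.00261) and lower in number 25 than in number 13, at -0.32 (SE 0.08, edgeR adjusted p 0.0447). BCL2A1, another pro-survival gene, was higher at number 1 by 0.52 (SE 0.19, edgeR adjusted p 0.0429), with 12.0 CPM in SH3 number 1 and 4.51 to 6.70 CPM in the other 8 samples. BMF was higher at number 1 than the mean of numbers 13 and 25 by 0.85 (SE 0.19, edgeR adjusted p 0.00478). In EV, SH2 and SH3 in turn it was at 13.9, 12.9 and 29.5 CPM at number 1. The values were 14.5, 16.1 and 14.7 CPM at number 13 and 5.90, 7.07 and 6.66 CPM at number 25. Number 1 was thus above number 13 in SH3 only. Of the death receptor list, FAS, at 0.61 (SE 0.22, edgeR adjusted p 0.0449), TNFRSF10B, at 0.79 (SE 0.19, edgeR adjusted p 0.00831), and CFLAR, at 0.39 (SE 0.08, edgeR adjusted p 0.00466), were higher at number 1. The FAS value rested on SH3 number 1, at 12.5 CPM against 3.79 to 4.95 CPM in the other 8 samples. TNFRSF10A, at -0.28 (SE 0.08, edgeR adjusted p 0.0113), and RIPK1, at -0.43 (SE 0.10, edgeR adjusted p 0.00635), were lower. In EV, SH2 and SH3 in turn, TNFRSF10A was at 14.5, 12.4 and 13.3 CPM at number 1. Number 13 was close, at 15.5, 12.7 and 12.5 CPM, and number 25 was higher, at 21.4, 17.8 and 19.8 CPM.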
